A study of Mus musculus with 2 samples.

Results

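The regions described here are the differentially methylated regions of mouse adipose progenitors that lie far from any protein-coding gene. A region belongs to the set when it lies on chromosomes 1 to 19 and more than 100 kb from the body of the nearest protein-coding gene in RefSeq's GRCm38.p6 table, the assembly that mm10 names. The rule uses position only and takes no account of score, sign or width. It selects 5935 of the 34139 regions in the authors' deposited list, or 17.7% of its 33566 autosomal regions. Of the other autosomal regions, 17221 overlap a protein-coding gene body and 10410 lie outside one but within 100 kb. The selected regions are called distal regions, and a stretch between neighbouring protein-coding genes that leaves some ground more than 100 kb from both is called a gene desert.

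The list compares 2 libraries of bisulfite-converted genomic DNA, in which unmethylated cytosine reads as thymine after amplification and methylated cytosine does not. The first library is from CD137+ adipose progenitors and the second from PDGFRα+ adipose progenitors, both of C57BL/6 mice. Cells of both kinds were taken from SAT or VAT by MACS (magnetic sorting), grown, exposed to an adipogenic cocktail and given DEX treatment, per the labels' protocols. The labels do not say from which fat depot each library came, the animals' age or sex, or how many animals were used. DEX was shared by both libraries, so the list holds no untreated reference. Each library is a bulk sample, so a different mix of cells and a different methylation within cells cannot be told apart. The list holds no level per library, so the labelled cell types could not be checked against Pdgfra, Tnfrsf9 or any other marker.

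Each region in the list has a position and a signed score from the authors, and no header says which library was subtracted from which. The list's title names PDGFRα+ cells first and CD137+ cells second. The text therefore keeps to negative and positive score, and uses the size of the score only to describe and rank regions within this list. There was 1 library per group, so no value below carries a replicate error or a p-value. Intervals are 95% intervals for counting error only (Wilson for shares, exact Poisson for densities), and regions near each other are not independent of each other.

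DNA methylation in mammals sits mostly on the cytosine of CpG pairs, and most CpG pairs outside promoters are methylated. Where a transcription factor occupies an enhancer, methylation there is often low, so differences between related cell types are often found at enhancers rather than at promoters. Genes that pattern the embryo, such as those for homeodomain, SOX and ID proteins, are often bounded by long gene deserts that carry enhancers acting over great distances. Other deserts flank large neuronal adhesion genes and have few known regulatory elements.

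The letters under a few distal regions can be shown because RefSeq's table of start windows (250 bases before to 50 after each gene's start, GRCm38.p6) also covers noncoding genes. A total of 40 distal regions overlapped the start windows of 38 long noncoding RNA genes. Of these 40 regions, 20 were negative and 20 positive, where 68.98% of all distal regions were negative. The stretches below are a selection from those with letters. They lie in deserts by Irx, Meis1, Id4, Nr2f2, Nkx6-1, Foxo1 and other developmental genes, or hold many CpG pairs. Further stretches of both kinds, such as that by Gm52029 in the Id4 desert and that by Gm40261 beside Fzd1, are not shown. Each is the part of the region inside the window, 5′ to 3′ on the noncoding gene's own strand, with CpG pairs in capitals. A lone capital G at the left end or C at the right end is the inner base of a CpG pair cut by the edge of the region.
Gm26947 (Unc5b and Pcbd1 desert, chr10:60931854-60931994, plus strand, score 174): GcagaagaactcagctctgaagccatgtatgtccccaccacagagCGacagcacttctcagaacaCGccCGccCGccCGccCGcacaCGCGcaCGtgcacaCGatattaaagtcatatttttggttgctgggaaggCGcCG
Gm32918 (Gm6569 and Adgrb1 desert, chr15:74204484-74204673, minus strand, score −143): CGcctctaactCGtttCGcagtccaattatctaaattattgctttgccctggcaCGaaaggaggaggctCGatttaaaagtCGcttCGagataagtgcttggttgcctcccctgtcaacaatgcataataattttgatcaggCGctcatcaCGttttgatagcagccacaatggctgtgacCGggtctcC
Gm31912 (Tcf7l2 and Habp2 desert, chr19:56105689-56105802, plus strand, score −71.2): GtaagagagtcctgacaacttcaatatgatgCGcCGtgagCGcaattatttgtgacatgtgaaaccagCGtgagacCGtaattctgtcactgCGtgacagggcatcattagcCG
Gm36843 (Irx3 and Irx5 desert, chr8:91997182-91997271, plus strand, score −135): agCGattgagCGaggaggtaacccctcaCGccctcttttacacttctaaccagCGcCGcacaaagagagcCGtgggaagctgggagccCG
Gm39601 (Meis1 and Spred2 desert, chr11:19618831-19618951, minus strand, score 53.4): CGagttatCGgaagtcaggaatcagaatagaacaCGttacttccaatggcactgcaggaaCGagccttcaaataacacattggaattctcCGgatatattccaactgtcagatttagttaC
Gm38537 (Foxo1 and Cog6 desert, chr3:52467002-52467074, plus strand, score −50.8): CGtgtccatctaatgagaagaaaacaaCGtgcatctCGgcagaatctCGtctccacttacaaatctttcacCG
3110009F21Rik (Rtl1 and Dio3 desert, chr12:110158121-110158323, minus strand, score 115): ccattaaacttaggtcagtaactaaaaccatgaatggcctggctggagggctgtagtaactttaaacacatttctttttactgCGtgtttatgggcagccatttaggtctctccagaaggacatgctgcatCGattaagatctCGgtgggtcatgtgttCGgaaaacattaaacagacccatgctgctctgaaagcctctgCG
Mir100hg (Ubash3b and Gm40514 desert, chr9:41376276-41376345, plus strand, score 84.4): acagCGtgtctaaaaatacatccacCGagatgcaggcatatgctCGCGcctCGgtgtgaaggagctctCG
Gm3032 (Gpat3 and Nkx6-1 desert, chr5:101264268-101264414, plus strand, score −34.6): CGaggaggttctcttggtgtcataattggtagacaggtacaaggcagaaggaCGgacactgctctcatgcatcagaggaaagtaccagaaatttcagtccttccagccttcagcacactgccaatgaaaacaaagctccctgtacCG
Gm34664 (Arrdc4 and Nr2f2 desert, chr7:68916150-68916274, minus strand, score 109): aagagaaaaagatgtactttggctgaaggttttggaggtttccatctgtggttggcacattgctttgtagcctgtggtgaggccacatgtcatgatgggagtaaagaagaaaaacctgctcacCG
Gm40936 (Rnf144b and Id4 desert, chr13:47461161-47461249, plus strand, score 34.9): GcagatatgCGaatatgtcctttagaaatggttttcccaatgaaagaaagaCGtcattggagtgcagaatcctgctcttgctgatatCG
Gm40176 (Ttll7 and Adgrl2 desert, chr3:148081219-148081271, plus strand, score −38.2): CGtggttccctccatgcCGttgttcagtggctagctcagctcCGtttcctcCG

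The stretch by Gm26947 came from the region of largest score among these, 174, and holds 13 CpG pairs in 141 bp, counting the pair cut by its edge. The region by Gm32918 scored −143 with 11 pairs in 190 bp, and those by Gm40936 and Gm40176 scored 34.9 and −38.2 with 4 pairs each. The windows overlapped by distal regions held a median of 5 CpG pairs in their 300 bases, against 7 over all 32851 windows in the table. The former are all windows of long noncoding RNA genes, while the latter include protein-coding genes, so the classes compared are unlike. The CG pair was searched as written, which reads the same on both strands, and 94.6% of all windows hold it at least once.

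These letters also show where the regions within start windows begin and end. Over the whole list, 138 regions lay wholly within a start window, 12 of them distal. No region wider than the 300 bases of a window can be among them, so their range of widths is cut. Whether regions elsewhere in the list are alike was not tested. In all 138, the first base and the last base belonged to a CpG pair. The base just before the first did so in 33.3%. The absolute score followed the number of CpG pairs in the region more closely than its width: Spearman's rho across the 138 regions was 0.933 with the number of pairs and 0.535 with the width. These regions share both libraries and are not independent replicates. The absolute score per CpG pair, counting pairs cut by an edge, had a median of 9.85 in the 12 distal regions and 9.52 in the 126 others. The distal ones held a median of 4.5 pairs, or 4.73 per 100 bp, and the others 7 pairs, or 6.44 per 100 bp. All of the distal ones lie in windows of long noncoding RNA genes, and the others were not matched for gene class. For the remaining distal regions the number of CpG pairs was not counted, because no genome sequence was used here.

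Distal regions mostly carried a negative score. A total of 4094 were negative and 1841 positive, which is 68.98% negative (67.8 to 70.1%). The share over the whole list was 67.4%, and over all other autosomal regions it was 67.0% (66.4 to 67.5%). The last 2 intervals, for distal and other autosomal regions, do not overlap. The distance to the nearest protein-coding gene had a median of 220 kb, with quartiles at 146 and 360 kb. Between 100 and 200 kb the negative share was 66.7% (64.9 to 68.5%), between 200 and 300 kb it was 71.7% (69.2 to 74.0%), between 300 and 500 kb 68.2% (65.5 to 70.9%), between 500 kb and 1 Mb 72.7% (69.1 to 76.0%), and beyond 1 Mb 73.6% (66.8 to 79.5%, 182 regions). The share did not rise evenly: at 100 to 200 kb, at 300 to 500 kb and beyond 1 Mb, the interval held the share of the list.

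The size of the score was lower away from genes while the width was nearly the same. Distal regions had a median width of 111 bp (quartiles 79 and 187 bp, range 51 to 1620 bp), against 113 bp in the other autosomal regions. Together they covered 938 kb. Their median absolute score was 45.3 (quartiles 31.3 and 69.7), against 50.7, and their absolute score per bp had a median of 0.399, against 0.438. An absolute score of 100 or more, which 15.5% of the whole list reached, was found in 711 distal regions, or 11.98% (11.2 to 12.8%). In the other autosomal regions the share was 16.4% (16.0 to 16.8%). It fell with distance, from 13.9% at 100 to 200 kb to 6.74% at 500 kb to 1 Mb and 3.85% beyond 1 Mb. Of the 711 strong distal regions 476 were negative, or 66.9% (63.4 to 70.3%).

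The lower score was present within each class of width. Among regions from 300 bp to under 500 bp wide the median absolute score was 92.7 in distal regions and 120 in the other autosomal ones. Among those of 500 bp or more it was 134 and 187, and among the narrowest, 51 to 79 bp, it was 31.0 and 32.1. Wide regions were slightly more frequent among the distal ones, 2.97% of which spanned 500 bp or more, against 2.47%. Negative distal regions were a little wider than positive ones (median 113 and 104 bp), at a median absolute score of 45.4 and 45.1. Wide distal regions were also more often negative: 77.8% (71.1 to 83.3%) of those of 500 bp or more, against 66.6% (64.2 to 68.9%) of those of 51 to 79 bp. The other autosomal regions showed the same order, with 73.9% (70.5 to 77.1%) and 65.1% (63.9 to 66.2%).

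The 100 kb line itself marked no step. The 411 regions at 90 to 100 kb were 65.9% negative with a median absolute score of 48.9 and a median width of 117 bp. The 391 regions at 100 to 110 kb were 66.5% negative, with 51.8 and 120 bp.

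Distal ground was sparse in regions. The 1376 deserts with distal ground made up 654.3 Mb, or 27.3% of the 2398 Mb between the first and last protein-coding genes of the autosomes. They held 5929 distal regions, 9.06 per Mb (8.83 to 9.30), against 15.8 per Mb over the rest, a ratio of 0.572. The other 6 distal regions lie beyond the outermost protein-coding gene of a chromosome and enter no density. The density fell steadily from 13.4 per Mb (12.9 to 13.9) at 100 to 200 kb from the nearest gene, to 11.2 at 200 to 300 kb, 8.29 at 300 to 500 kb, 4.70 at 500 kb to 1 Mb and 2.77 (2.38 to 3.20) beyond 1 Mb.

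**Figure D1:**
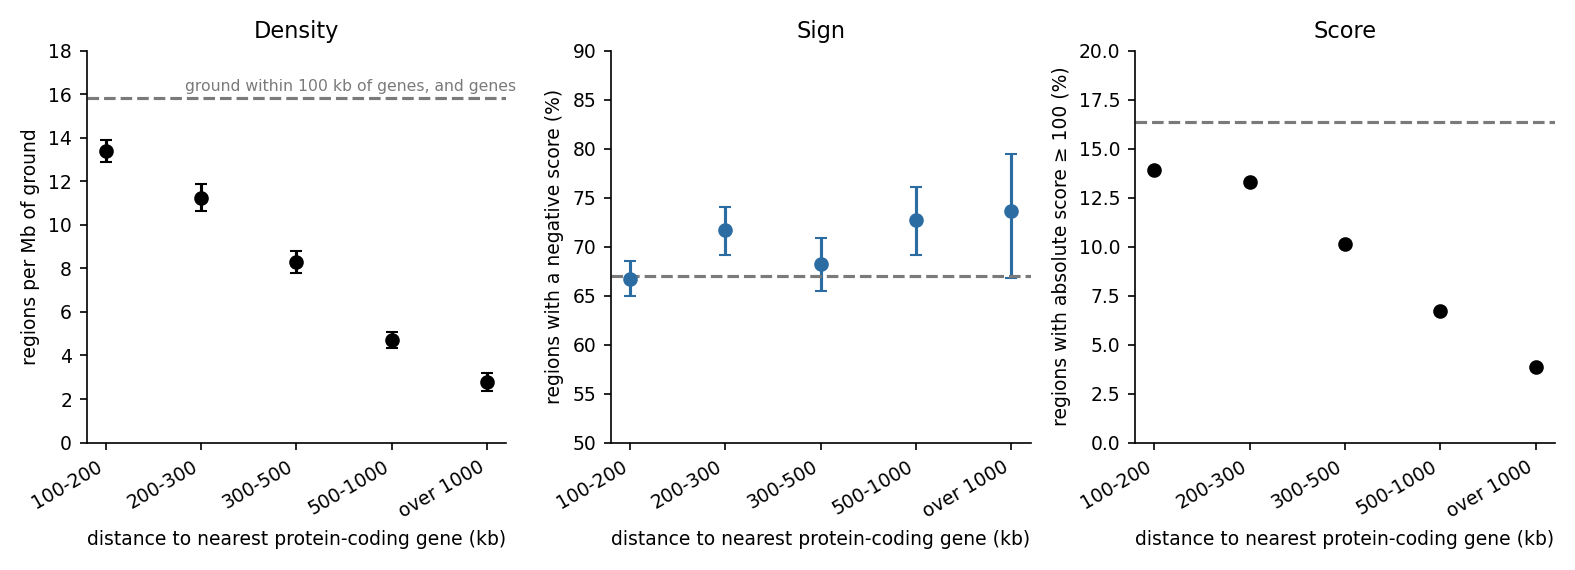
Distal regions by distance to the nearest protein-coding gene in kb. Left, regions per Mb of ground with exact Poisson intervals; middle, percent with a negative score with Wilson intervals (the axis starts at 50%); right, percent with an absolute score of 100 or more. Dashed lines give the value over all other autosomal ground (15.8 per Mb, 67.0% and 16.4%). Density falls from 13.4 to 2.77 per Mb and the strong share from 13.9 to 3.85%, while the negative share goes from 66.7 to 73.6%.

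All 19 autosomes had fewer regions per Mb in distal ground than in the rest. The ratio ran from 0.431 on chromosome 15 to 0.920 on chromosome 7. Distal density itself was lowest on chromosome 14 (7.35 per Mb) and highest on chromosome 13 (13.2 per Mb, 12.02 to 14.5), which carries 2 of the richest deserts described below. Chromosome 7 had the least dense ground near genes, 11.5 per Mb, so its ratio was near 1 at an ordinary distal density of 10.6. The negative share of distal regions ran from 64.1% on chromosome 9 to 74.7% on chromosome 5, and on 14 of 19 chromosomes it was above that of the rest of the same chromosome.

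**Figure D2:**
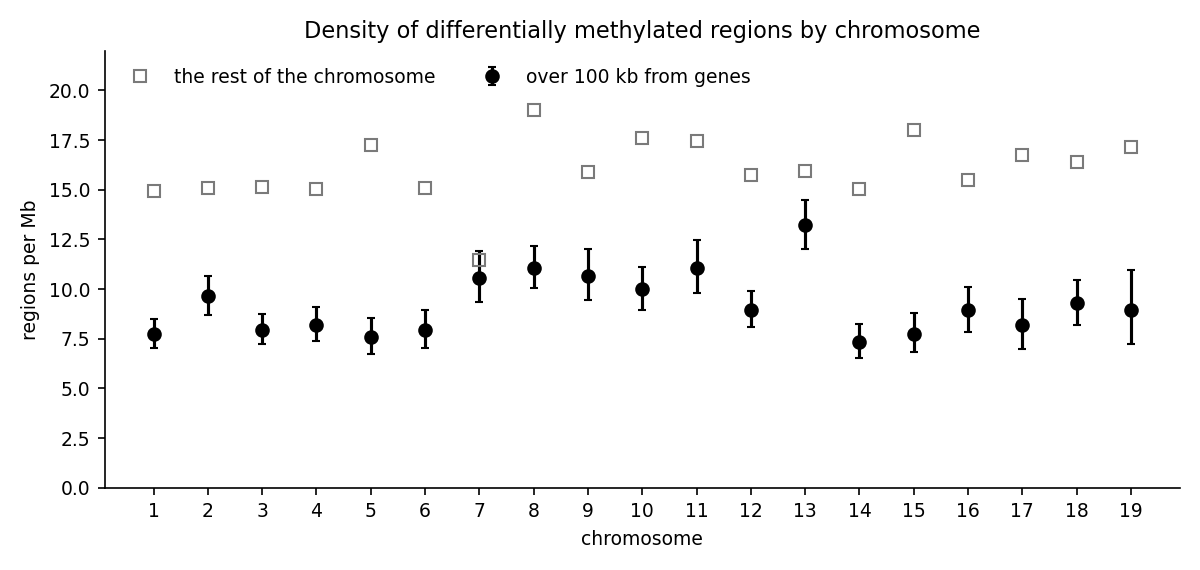
Regions per Mb on each autosome in ground over 100 kb from protein-coding genes (filled circles, exact Poisson intervals) and in the rest of the chromosome (open squares). The filled circles lie between 7.35 and 13.2 per Mb and below the square of the same chromosome on all 19, with the smallest gap on chromosome 7.

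Deserts differed widely in how many regions they held. At least 1 distal region was found in 1018 of the 1376 deserts (74.0%), with a median of 4, and 212 held exactly 1. The 358 without any were small, with a median of 49.0 kb of distal ground, against 356 kb in those with regions. A group of 184 deserts with 10 or more regions held 49.0% of the distal regions on 33.0% of the distal ground. Density fell with size, from 18.01 per Mb in deserts with up to 100 kb of distal ground to 4.15 per Mb in the 61 deserts with over 2 Mb. The negative share was 66.8% (61.8 to 71.4%) in the smallest class and 75.2% (71.9 to 78.2%) in the largest.

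The 17 richest deserts (15, plus ties at 24 regions) held 487 regions, 8.21% of the regions on 4.73% of the ground. Their density was 15.7 per Mb. Of their regions 343, or 70.4% (66.2 to 74.3%), were negative, a share near that of all distal regions. Negative regions were the majority in 16 of the 17, and 1 was tied. Genes of the developmental transcription factor list bounded 6 of the 17; over all 1376 deserts they bounded 150, or 10.9%. Genes of the ephrin system bounded another 3, a group named after the ranking was seen and with no list of its own. How many of all deserts such genes bound was not counted. The ranking is by number of regions and not by density, so long deserts can enter it.

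**Figure D3:**
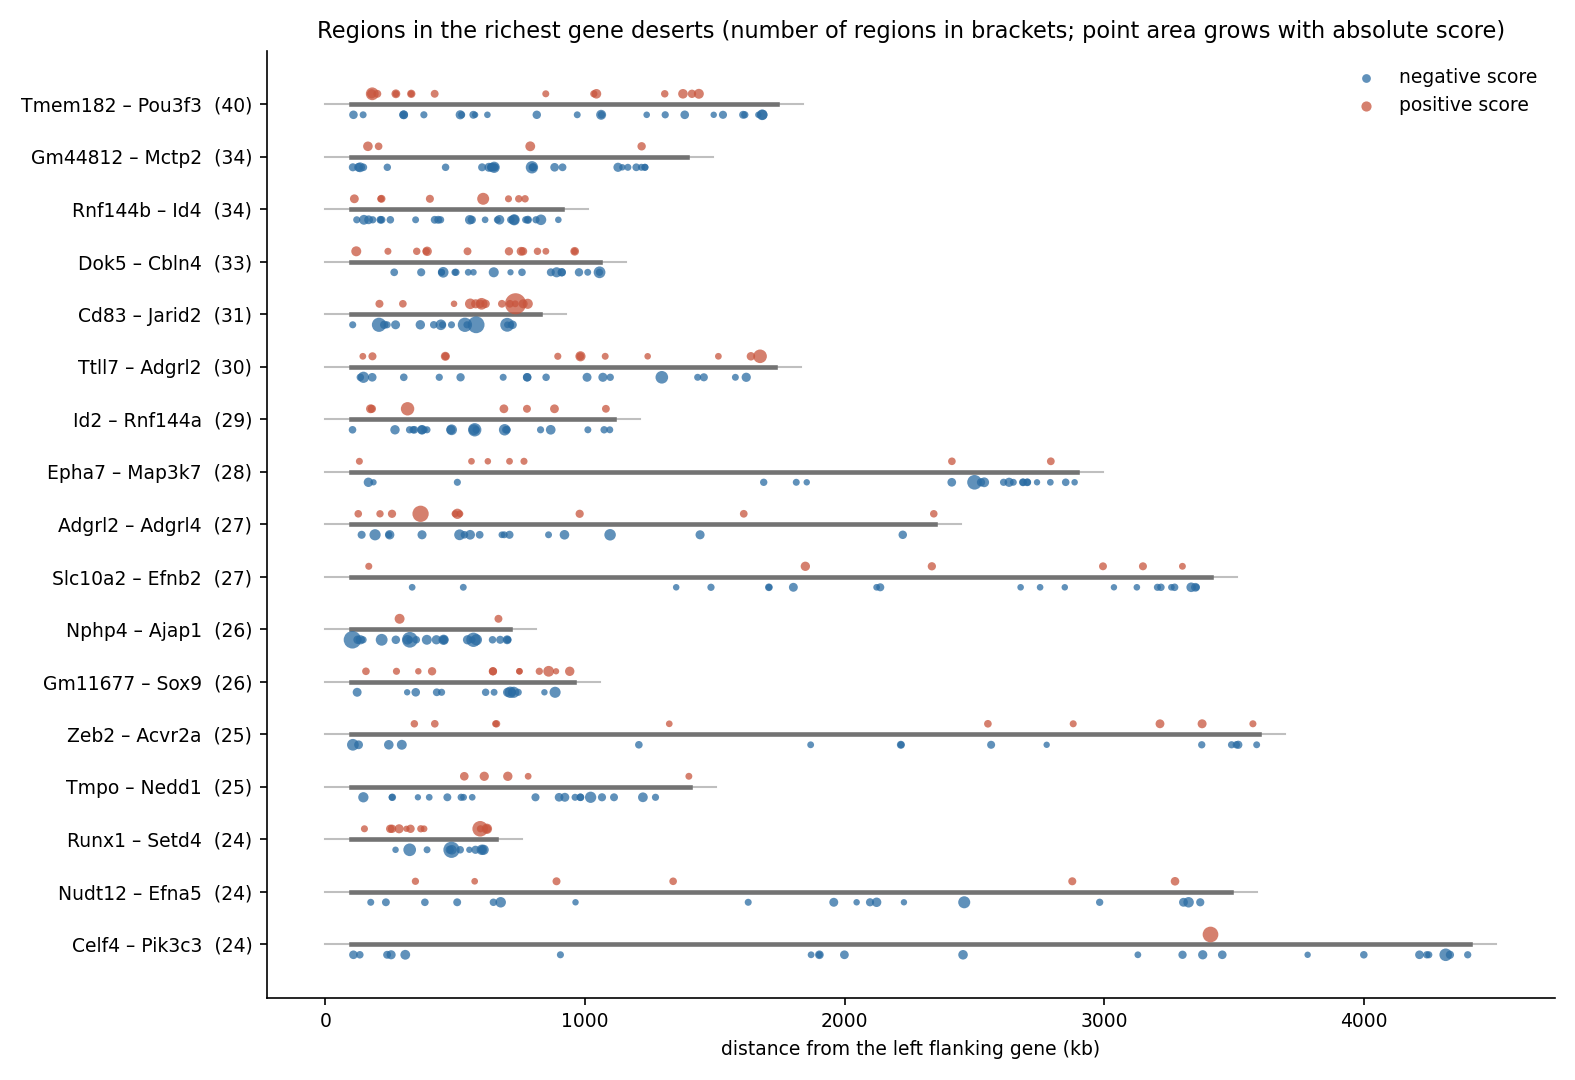
Distal regions in the 17 richest gene deserts, by distance in kb from the gene on the left (the one at the lower coordinate). Each point is a region, above the line where its score is positive and below it where negative, and the thick line is ground more than 100 kb from both genes. Points crowd by Map3k7 and Efnb2 and spread along the whole line between Rnf144b and Id4.

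The richest desert lies between Tmem182 and Pou3f3 on chromosome 1 (40856887 to 42695768). Pou3f3 encodes a POU-domain transcription factor of the developing nervous system and kidney. Its desert held 40 regions, 25 negative and 15 positive, or 24.4 per Mb, with scores from −121 to 191. Of these, 21 lay nearer Tmem182 and 19 nearer Pou3f3. A run of 7 negative regions spanning 188 kb lay on the Pou3f3 side, and the 2 regions at Pou3f3 itself (the gene with 5 kb on either side) were negative too.

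The ID proteins are helix-loop-helix factors that bind bHLH transcription factors and keep them from DNA, and Id2 and Id4 each sit beside a gene of the RNF144 family of ubiquitin ligases. Both of these paralogous deserts were among the 7 richest. Between Rnf144b and Id4 on chromosome 13 (47247991 to 48261116) lay 34 regions, 26 negative and 8 positive, at 41.8 per Mb. Between Id2 and Rnf144a on chromosome 12 (25096092 to 26306794) lay 29 regions, 22 negative and 7 positive, at 28.7 per Mb. In the Id2 desert 12 negative regions followed each other over 257 kb, directly after the desert's strongest region, which was positive (213, 685 bp wide, 316 kb from Id2). The strongest region of the Id4 desert was positive as well (162). Id2 itself carried no region within 5 kb, and Id4 carried 2 of opposite sign.

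Nr2f2, which encodes the nuclear receptor COUP-TFII, lies between deserts of opposite majority sign on chromosome 7. On the side of higher coordinates, the predicted gene Gm44812 splits the desert. Between Gm44812 and Mctp2 (70584961 to 72077827) lay 34 regions, 30 negative and 4 positive, at 26.3 per Mb. A cluster of 10 of them, all negative, fell within 51.4 kb. With predicted genes disregarded, the stretch from Nr2f2 to Mctp2 held 40 regions, 32 of them negative. On the other side, between Arrdc4 and Nr2f2 (68749238 to 70351946), 16 of 22 regions were positive, 9 of them in an unbroken run of 331 kb. Of these 22, 15 lay nearer Arrdc4, and the strongest was negative (−181, 193 kb from Arrdc4). The 10 regions at Nr2f2 itself were all negative.

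Sox9, a factor of cartilage and the testis, is bounded by long deserts on chromosome 11. Between Gm11677 and Sox9 (111726301 to 112782210) lay 26 regions, 14 negative and 12 positive, at 30.4 per Mb. Counted from Kcnj2, the next gene with an established name, the stretch held 45 regions, 28 negative and 17 positive. On the other side, toward Slc39a11, 257 kb of distal ground held 9 regions, 6 of them negative. The 3 regions at Sox9 itself were positive.

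Runx1, a factor of blood formation, shares a desert with Setd4 on chromosome 16 (92826074 to 93583457). It held 24 regions in 557 kb of distal ground, 43.1 per Mb, and was the desert with equal signs, 12 and 12. Its strongest regions pointed opposite ways, −330 (508 bp wide) and 301. The second lay within the long noncoding RNA gene 1700029J03Rik, whose body overlapped 8 distal regions, 4 of each sign.

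Between Cd83, an immune cell surface protein, and Jarid2, a partner of the Polycomb complex that methylates histone H3, lay 31 regions (chromosome 13, 43803133 to 44730774). Their density was 42.6 per Mb, with 17 negative and 14 positive. Their scores spanned −355 to 582, and 9 reached an absolute score of 100. The positive extreme, 455 bp wide at 44535517 to 44535971, lay 195 kb from Jarid2 in the body of Gm34276. Neither Cd83 nor Jarid2 carried a region within 5 kb.

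Genes of the ephrin system, which guides cells by contact, bounded 3 of the 17, and in 2 of these the regions lay mostly near 1 end. Between the receptor gene Epha7 and Map3k7 on chromosome 4 (28967503 to 31963492), 20 of 28 regions were nearer Map3k7, which encodes the kinase TAK1. There 12 negative regions followed each other over 292 kb, starting with the strongest (−260). Between Slc10a2 and the ligand gene Efnb2 on chromosome 8 (5105287 to 8617235), 20 of 27 regions were nearer Efnb2, and 21 of 27 were negative. No region there reached an absolute score of 100. Between Nudt12 and the ligand gene Efna5 on chromosome 17 (59013367 to 62602957), the 24 regions were split evenly, 12 nearer each gene, and 18 were negative. The density was 10.01 per Mb in the Epha7 desert, 8.15 in the Efnb2 desert and 7.08 in the Efna5 desert. Over all deserts it was 9.06 per Mb, and in deserts with over 2 Mb of distal ground, as in these 3, it was 4.15. Whether ephrin genes go with more regions was not tested.

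The latrophilin gene Adgrl2 on chromosome 3 bounded 2 of the 17. On the side of Ttll7 (146984009 to 148815586) lay 30 regions, 18 negative and 12 positive. On the side of Adgrl4 (148989096 to 151437882) lay 27, of which 17 were negative and 23 lay nearer Adgrl2. The strongest region on either side was positive, 220 and 331.

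The desert between Nphp4 and Ajap1 on chromosome 4 (152563184 to 153373221) was dense and nearly uniform in sign. Its 26 regions, 42.6 per Mb, were negative in 24 cases, with 14 in an unbroken run. The median absolute score was 73.5 and the extreme −388 (637 bp wide). The regions at the flanking genes did not share this sign: both at Nphp4 were positive, and the 6 at Ajap1 were 3 negative and 3 positive.

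The remaining 4 of the 17 were bounded by Dok5 and Cbln4 (chromosome 2, 33 regions, 20 negative, 34.5 per Mb), by Zeb2 and Acvr2a (chromosome 2, 25 regions, 15 negative, 7.15 per Mb), by Tmpo and Nedd1 (chromosome 10, 25 regions, 20 negative, 19.2 per Mb), and by Celf4 and Pik3c3. Zeb2 encodes a repressor of epithelial genes, Acvr2a an activin receptor. The Celf4 desert on chromosome 18 (25754520 to 30265615) was the largest of the group, with 4311 kb of distal ground and 5.57 regions per Mb. Of its 24 regions 23 were negative, and the sole positive one was its strongest (305). If predicted gene names are disregarded throughout, the richest stretch lies between Vrk1 and Bcl11b on chromosome 12 (106078318 to 107910403), with 54 regions, 37 negative and 17 positive. Bcl11b encodes a zinc finger repressor of T cell and neuron development.

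By density, the leading deserts with 10 or more regions were short. Between Dyrk2 and Cand1 (chromosome 10) lay 10 regions in 110 kb of distal ground, 91.3 per Mb, 4 negative and 6 positive. Between Ackr3, a scavenging receptor for CXCL12, and Cops8 (chromosome 1) lay 14 regions at 74.8 per Mb, of which 10 were positive. All 5 regions at Ackr3 itself were positive. Next came Rpl34 and Lef1, a nuclear effector of WNT signalling (chromosome 3, 12 regions, 66.7 per Mb, 6 of each sign). Tnks and Ppp1r3b followed (chromosome 8, 12 regions, 57.1 per Mb, 8 negative), then Gas1 and Dapk1 (chromosome 13, 12 regions, 53.5 per Mb, 8 negative).

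Most deserts were mixed in sign. Among the 184 deserts with 10 or more regions, the negative share had quartiles of 60, 70.6 and 80%, around the 67.4% of the list. Negative regions were the majority in 157, positive in 19, and 8 were tied. Only 13 had a negative share of 90% or more, and 6 had 30% or less. All regions were negative between Got2 and the cadherin gene Cdh8 (chromosome 8, 17 of 17 over 2744 kb), Nox3 and Arid1b (chromosome 17, 15 of 15), Gpat3 and Nkx6-1 (chromosome 5, 14 of 14), and Tle4 and Psat1 (chromosome 19, 10 of 10). Gpat3 encodes an acyltransferase of triglyceride synthesis, and Nkx6-1 a homeodomain factor. The regions at Tle4 itself had the other sign: 3 of 3 were positive.

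At the other end, 9 of 11 regions were positive between Ddhd1 and Bmp4 (chromosome 14), with 8 in a row over 362 kb. BMP4 is a ligand that commits mesenchymal cells to the adipocyte lineage. Its own gene had no region within 5 kb. Positive regions were also the majority between Zfp608 and Gramd3 (chromosome 18, 17 of 22, with 10 in a row over 662 kb), Arrdc4 and Nr2f2 (16 of 22), Fn1 and Mreg (chromosome 1, 8 of 11), and Ackr3 and Cops8 (10 of 14). Fn1 encodes the matrix protein fibronectin, and the 2 regions at the gene itself were positive as well, as were all 3 at Zfp608.

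**Figure D4:**
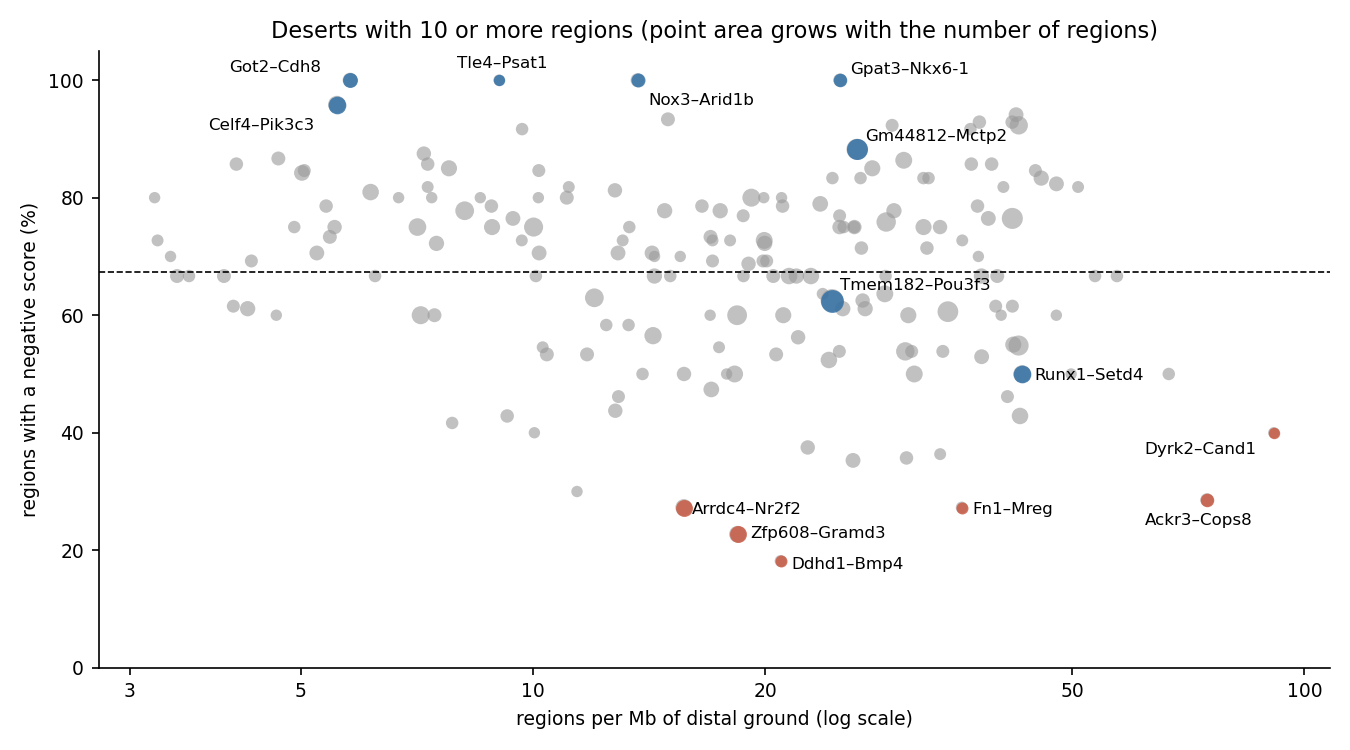
Each point is a desert with 10 or more distal regions (184 in all), by regions per Mb of distal ground (log axis) and percent of regions with a negative score; area grows with the number of regions, and the dashed line marks the 67.4% of the whole list. Coloured points are deserts named in the text; Got2–Cdh8, Nox3–Arid1b, Gpat3–Nkx6-1 and Tle4–Psat1 lie at 100%, Ddhd1–Bmp4 at 18.2%.

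Neighbouring distal regions within a desert carried the same sign in 62.4% (61.0 to 63.7%) of 4912 pairs. Pairs that followed the overall negative share alone, without regard to each other, would share a sign in 57.2%. The share was 92.4% (89.1 to 94.7%) in the 353 pairs less than 1 kb apart, 62.0% at 1 to 10 kb and 58.7% at 10 to 50 kb. Neighbours within gene bodies did so in 67.0% of pairs overall and in 95.5% below 1 kb, against 55.6% from their overall share alone. At 10 to 50 kb the distal interval (56.4 to 61.0%) held the value from the share alone, and beyond 50 kb the value was 60.5% (58.4 to 62.6%). Distal neighbours lay farther apart, at a median of 36.2 kb against 15.1 kb. The densest 100 kb windows held 12 regions each. The window in the Etaa1 and Meis1 desert (chromosome 11) held 10 negative and 2 positive regions. The window between Psmd7 and Zfhx3 (chromosome 8) held 5 negative and 7 positive.

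The strongest distal regions lay one by one in different deserts. The largest negative score, −865, belonged to a region of 730 bp at chr4:131173706-131174435, between Matn1, a cartilage matrix protein gene, and Ptpru. The next was −719 between Nrip1 and Usp25 (chromosome 16, 698 bp, 314 kb from Nrip1). Nrip1 encodes RIP140, a nuclear receptor corepressor that restrains energy expenditure in adipocytes. Between Zfhx3 and Pmfbp1 a region scored −542 within the noncoding genes D030068K23Rik and 4922502B01Rik. Others scored −538 between Slc4a3 and Epha4, −487 between Pfn2 and Tsc22d2 (1148 bp), −434 between Nlrp1b and Wscd1, −426 between Myc and Gsdmc within Pvt1, −425 between Adamts18 and Nudt7, −388 between Nphp4 and Ajap1, and −383 between Aldh8a1 and Sgk1. Sgk1 encodes a glucocorticoid-induced kinase, and its region lay 229 kb away.

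The largest positive score, 583, belonged to a region of 744 bp between Med13l and Tbx3 (chromosome 5, 119271019 to 119271762), 399 kb from Tbx3, a T-box factor of limb and mammary development. That desert held 22 regions, 11 of each sign. The Cd83 and Jarid2 region followed at 582, then one of 531 between Mmadhc and Rnd3 (187 kb from Rnd3). The remaining ones scored 376 between Agtr1b and Tbl1xr1, 366 between Psmd7 and Zfhx3, 332 between Arglu1 and Fam155a, 331 between Adgrl2 and Adgrl4, 321 between Arpp21 and Pdcd6ip, 318 between Etnk1 and Sox5, and 311 between Fn1 and Mreg. The region by Tbl1xr1 was 107 bp wide, the narrowest of these 20. Zfhx3, a homeodomain and zinc finger factor, thus had a leading region of each sign, one in the desert on either side.

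Width and score were not the same ranking. The widest distal region, 1620 bp between Dthd1 and Nwd2 on chromosome 5, scored only −52.7. The region farthest from any protein-coding gene lay 2223 kb from Pcdh9 on chromosome 14 and scored −72.8 over 573 bp.

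To describe which kinds of genes bound the deserts, 5 gene lists were used. Deserts bounded by a listed developmental transcription factor gene numbered 150 and held 1101 regions, 14.4 per Mb (13.6 to 15.3), against 9.06 over all deserts. Their negative share was 66.4% (63.6 to 69.1%), and 15.3% (13.3 to 17.6%) of their regions reached an absolute score of 100, against 11.98%. At least 10 regions were found in 27.3% of them, against 13.4% of all deserts. Deserts bounded by adhesion, synapse and channel genes (118) had 4.68 regions per Mb (4.34 to 5.03), a negative share of 74.1% (70.8 to 77.1%) and a strong share of 8.14%. Deserts by signalling and guidance genes (82) stood near the average, at 9.59 per Mb, with 62.7% negative (58.0 to 67.2%). Those by chemoreceptor genes (20) were small, and 6 held any region, 24 in all.

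Since density fell with the size of the desert, the lists were also set side by side within classes of size. In deserts with up to 500 kb of distal ground, the transcription factor list had 20.9 regions per Mb, the adhesion list 9.75 and all deserts 15.1. From 500 kb to 1 Mb the values were 15.3, 5.13 and 11.0, and above 1 Mb they were 9.39, 4.35 and 5.37. The order of the lists was thus the same in the 3 classes. No test was made of these differences, and CpG content and read coverage, which were not used here, could differ between such deserts.

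**Figure D5:**
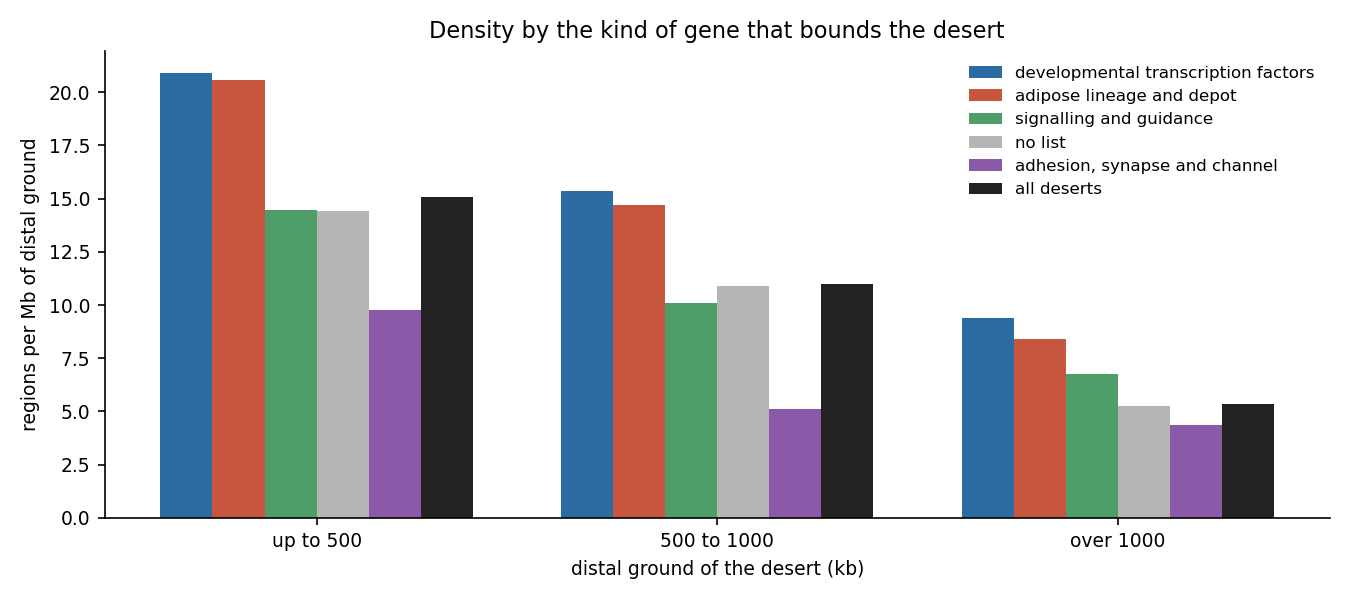
Distal regions per Mb of distal ground in deserts of 3 size classes, by the list to which a bounding gene belongs. Black bars are all deserts. Some genes stand on both the adipose and the transcription factor list. The developmental transcription factor bars (20.9, 15.3 and 9.39) stand above the black bars (15.1, 11.0 and 5.37) and the adhesion bars (9.75, 5.13 and 4.35) below them in each class; the adipose bars in the middle and right classes rest on 3 and 5 deserts.

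Among the transcription factor genes, several had distal regions on both sides. Meis1, a HOX cofactor, had 20 regions toward Etaa1, 17 of them negative, and 16 toward Spred2, of which 10 were positive. Its own 29 regions were all negative. Zfhx3 had 21 toward Psmd7, 9 negative and 12 positive, and 11 toward Pmfbp1, 9 of them negative. Irx1 had 21 toward Adamts16, 14 of them negative, and 8 toward Irx2, 6 of them negative. The regions of the 2 Sall1 deserts were negative in 17 of 18 cases, and both regions at Sall1 itself were negative.

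Deserts by genes of the adipose lineage list numbered 35, and 34 of them (97.1%) held a distal region, against 74.0% of all deserts. They had 13.9 regions per Mb (12.2 to 15.8), against 9.06 over all deserts, and a negative share of 63.7% (57.3 to 69.6%). This list shares genes with the transcription factor list, among them Nr2f2, Gata3, Irx3, Irx5, Foxo1, Klf4 and Ebf1. The values of these lists are therefore not independent of each other. Between Irx3 and Irx5, homeodomain genes known as distant targets of the human FTO obesity locus, 12 of 14 regions were negative at 39.3 per Mb. The 7 regions at Irx3 and the 10 at Irx5 were negative too. A region of this desert overlaps the start window of Gm36843, shown above. At Ebf1, an early B cell and adipocyte factor, 24 of its own 25 regions were positive. In the desert toward Clint1 8 of 11 were negative, where 68.98% of all distal regions were. Foxo1 had 10 negative regions of 14 toward Cog6. Klf5, an early adipogenic factor, had 8 of 8 negative. Tle3, a corepressor that acts with PPARγ, had 18 in deserts on both sides, 11 negative and 7 positive, at 30.7 per Mb. Nr2f2 and Bmp4, described above, and Klf4 (7 positive of 13) were the members of this list with over 10 regions and a positive majority. Nr2f2 was counted here only toward Arrdc4, because Gm44812 bounds the desert on its other side. With predicted genes disregarded, 32 of the 40 regions from Nr2f2 to Mctp2 were negative.

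In the signalling list, Cxcl12 encodes the stromal chemokine bound by ACKR3. Its 2 deserts held 21 regions, 15 of them positive, at 29.5 per Mb, and 6 in a row were positive over 103 kb toward Tmem72. No region lay within 5 kb of Cxcl12 itself. Fgfr2 had 13 regions toward Wdr11, 8 of them negative, at 39.8 per Mb. These genes were named after their values were seen.

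The sign of regions at a flanking gene was also set beside that of the distal regions nearest to it. For 44 flanks with 3 or more own regions of which under 25% were negative, the distal regions nearer that flank were negative in 54.1% (47.1 to 61.0%, 194 regions). For 184 flanks with over 75% negative it was 69.4% (66.1 to 72.5%), for 241 flanks in between 70.9% (68.1 to 73.6%), and for flanks without a region 69.8% (67.8 to 71.7%). For flanks with 1 or 2 regions it was 68.4% (66.2 to 70.5%). The first of these intervals lies below the others. The intervals count regions and not flanks, and regions of the same desert are not independent, so a difference between flanks was not tested.

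Far from protein-coding genes does not mean outside all genes. A RefSeq noncoding gene or pseudogene body overlapped 1154 distal regions (19.4%), and a long noncoding RNA gene 1095 (18.4%). Long noncoding RNA bodies cover 10.8% of the distal ground and held 15.5 regions per Mb, against 8.28 per Mb outside them. The same order held at each distance: 20.8 and 12.2 per Mb at 100 to 200 kb, 14.1 and 9.07 at 200 to 500 kb, and 7.74 and 3.81 beyond 500 kb. The negative share was 67.4% in these bodies, equal to that of the whole list. Set beside distal regions outside these bodies, its order changed with distance. Inside and outside it was 63.4 and 67.7% at 100 to 200 kb, 72.1 and 69.7% at 200 to 500 kb, and 70.5 and 73.3% beyond 500 kb. D030068K23Rik beside Zfhx3 overlapped 10 distal regions, 8 of them negative, and Gm31674 beside Meis1 overlapped 8, 7 of them negative. Gm36723 beside Id2 overlapped 7, of which 6 were negative and the other was the strongest of that desert. Others held more positive than negative regions: Gm28722 beside Cops8 had 5 positive of 7, and Gm36743 beside Bmper and Lncenc1 beside Enc1 had 4 positive of 7 each.

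MicroRNA genes were rarely close. Within 5 kb of a miRNA hairpin lay 8 distal regions, beside 9 miRNA genes. All 8 were negative, where 67.4% of the whole list was. Neighbouring regions by the same miR-216b and miR-216c hairpins are among them, so the 8 are few and not independent. The only hairpin under a region was that of miR-1899 (chromosome 9, 8246786 to 8246881, score −36.0), between Cep126 and Trpc6. The mature forms that RefSeq's table lists for it, for the miR-100 hairpin and for the 3p arm of the let-7a-2 hairpin are shown with the seed, bases 2 to 8, in capitals. The miR-100 and let-7a-2 hairpins lie 1.18 kb and 3.94 kb from the same region (score −41.2).
mmu-miR-1899: aGCGAUGGccgaaucugcuucc
mmu-miR-100-5p: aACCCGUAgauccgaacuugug
mmu-miR-100-3p: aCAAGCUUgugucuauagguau
mmu-let-7a-2-3p: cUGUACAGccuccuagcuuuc

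The largest deserts without any distal region were also looked at. That between Adam6a and Zfp386 on chromosome 12 had 2301 kb of distal ground and holds 184 immunoglobulin gene segments, whose bodies RefSeq does not class as protein-coding genes. That between Gm51483 and Ndn on chromosome 7 (1035 kb) holds 13 miRNA genes and lies in the imprinted Snrpn and Ndn domain. The others were Eepd1 and B3gat1 (chromosome 9, 930 kb), Pcdh10 and Pabpc4l (chromosome 3, 806 kb) and Lrrc7 and Depdc1a (chromosome 3, 733 kb). Whether reads covered these deserts was not tested. Over all distal regions, 17 lay within 100 kb of an antigen receptor segment. Of these 14 were negative, where 67.4% of the whole list was.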

How the data were processed

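Bisulfite libraries of CD137+ and PDGFRα+ adipose progenitors, 1 each, were compared by the authors. The deposited list holds, without a header, the place of each region and its score with a sign. Coordinates are of mm10, as the submitters' processing notes name it. How reads were aligned, how regions were called and at which depth is not given in the sources used here, so the precision of each score is unknown. Positions are printed counting from 1. From the list, distances to protein-coding genes of the RefSeq GRCm38.p6 table were computed in Python 3.11.15 with pandas 2.3.3; 105 of 20665 autosomal genes, whose table positions lie below 3 Mb, were left out as scaffold positions. Tested on a simulated list of 5000 regions, the rule found 2059 distal regions of 2059 made. The regions, gene lists and rules were chosen with earlier results of these data known. Named deserts are the 15 richest with ties, the 5 densest, the 5 most negative and 5 most positive of those with 10 or more regions, the flanks of the 10 strongest regions of each sign, and the 5 largest empty ones. Genes of the lists beyond these were named after their values were seen. Alternatives changed the distance, gene classes, score and width.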

Additional observations from a re-analysis of the deposited data

Results flagged for a closer look

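Chromosome X was not part of the set, and its 557 regions were read only here. More than 100 kb from any protein-coding gene lay 102 of them, 73 of which were negative, or 71.6% (62.2 to 79.4%). Over 55.5 Mb of distal ground on X this is 1.84 regions per Mb, below the 7.35 to 13.2 per Mb of the autosomes. They drew notice because they are a signal in data outside the main measurement, with no control to set them against. The density in the rest of X was not computed. Whether the low value is particular to distal ground or holds over all of X was therefore not tested.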

How the results depend on the processing

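The density ratio stayed below 1 under every alternative run. With a distance of more than 50 kb the median absolute score was 46.7, the density ratio 0.639 and the number of deserts with a region 1584. With more than 200 kb, 3288 regions were left, 70.8% negative, with a median width of 107 bp, a median absolute score of 43.0, a density ratio of 0.461 and 576 deserts. With RefSeq genes of every class as the reference, 993 regions were left, 70.6% negative, with 102 bp, 39.1, a ratio of 0.375 and 496 deserts. Leaving out predicted protein-coding names gave a ratio of 0.555. The strong regions (absolute score from 100 up) numbered 711, were 66.9% negative, 282 bp wide and 134 in median absolute score, at a ratio of 0.418 in 389 deserts. Regions at least 100 bp wide numbered 3370, were 70.6% negative, 173 bp wide and 60.5 in median absolute score. The negative share was above the 67.4% of the list in the main result and turned below it among the strong regions, where the other autosomal regions had 67.2%; in the other alternatives it stayed above. Each alternative counts fewer or other regions or other ground by construction; further causes were not tested. No paired analysis was possible because each group has 1 library. Read coverage and CpG content per region were not used, so density differences between ground near and far from genes are uncorrected for either.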
